A study of Homo sapiens with 6 samples.

Results

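The input transcriptome of SK-N-BE cells is the RNA of the cell extract before any probe was added. SK-N-BE is an established human neuroblastoma line, and it was sampled at day 1.5 of differentiation, which was started with 10 µM retinoic acid in medium with 2.5% heat-inactivated serum. The members are the 2 libraries labelled INPUT, chosen by label from the 6 libraries of the series, and they are called input 1 and input 2. The remaining libraries are 2 pull-downs with biotinylated probes against the long non-coding RNA CyCoNP (CyCoNP PD) and 2 with probes against the bacterial gene LacZ (LacZ PD), from cells of the same line, day and treatment. All 6 were made as PCR-amplified cDNA and read on a Nanopore flow cell. The extract was a detergent lysate cleared by centrifugation, so RNA that sediments with the pellet was not sampled. There was no undifferentiated or untreated library, so no value below is a response to retinoic acid.

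Neuroblastoma arises from sympathoadrenal precursors of the neural crest. A circuit of transcription factors that includes PHOX2A, HAND2, GATA2 and GATA3 holds such cells in a noradrenergic state, in which they make catecholamines from tyrosine. Many lines carry extra copies of the MYCN oncogene, and retinoic acid slows their division and makes them extend neurites. In a cDNA library the most frequent molecules come from the translation machinery and the mitochondria, and lineage genes take a small share of the reads.

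Input 1 held 717905 counts and input 2 held 791970. At least 1 count was found for 13033 genes in both libraries and for 18861 in either, and the shared ones comprised 10821 protein-coding genes, 1120 lncRNA genes and 655 processed pseudogenes. A gene with 3 counts stood at 4.18 CPM (counts per 1000000 counts of the library) in input 1 and at 3.79 CPM in input 2, so lower levels were not resolved. The reads of input 2 fell on fewer genes, since 209 genes held 50% of its counts, against 287 in input 1. Over 9487 genes with 10 or more counts the libraries differed by 18.4 times the sampling noise (chi-square per degree of freedom), more than a library deposited again would give. Across 3730 genes with 50 or more counts and a count in both libraries, Pearson's r of log2 CPM was 0.72. Over all 3742 genes with 50 or more counts, Spearman's rho of CPM was 0.63. Both are descriptions over genes that share depth and library. The authors describe their pull-down samples as biological duplicates, but nothing in the labels says that the input libraries came from separate cultures. With 1 library on each side every difference below compares libraries, with a 95% interval that covers counting error only.

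Skeletal muscle transcripts set input 1 apart from input 2. A list of 40 skeletal muscle genes, among them genes of the contractile apparatus and the myogenic factors, was chosen after their values were seen. It summed to 3166 CPM in input 1 and to 130.1 CPM in input 2. In input 1 35 of the 40 had a count, and in input 2 13 did. MYOG, a transcription factor of muscle differentiation (chr1:203083129-203086012), had 666 counts in input 1 and 1 in input 2, a ratio of 735 with an interval of 131 to 29062. Troponin genes were split the same way, with 182 and 1 counts for TNNC2, 148 and 0 for TNNT2, and 131 and 0 for TNNC1. Against a floor of 3 counts in input 2, TNNT2 was at least 54.4-fold higher and TNNC1 at least 48.2-fold higher in input 1.

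The same list separated the pull-downs by replicate number. Its summed level was 5605 CPM in CyCoNP PD 1 and 6889 CPM in LacZ PD 1, against 177 CPM in CyCoNP PD 2 and 178 CPM in LacZ PD 2. Without the tropomyosins TPM1 and TPM2, which many cell types express, the sums were 2628 CPM in input 1 and 34.1 CPM in input 2. All 11 list members with 50 or more counts were 2-fold or more higher in input 1, where the background over all genes at that minimum was 18.3%. Members could reach the minimum through input 1 alone. Levels are therefore given for each library. Whether these transcripts came from the SK-N-BE cells or from other material in the libraries, and their part in the other differences, was not tested.

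**Figure D1:**
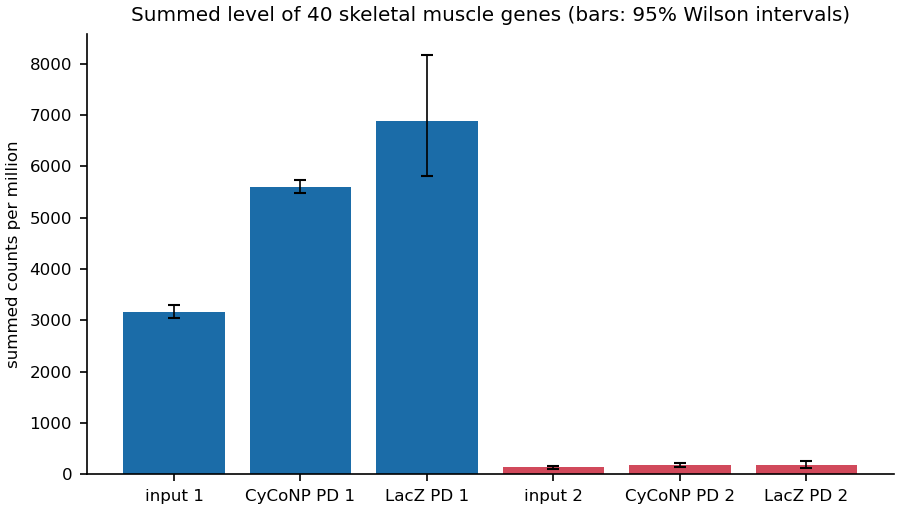
Summed level of 40 skeletal muscle genes in CPM (vertical axis, from 0) in each of the 6 libraries, with 95% Wilson intervals. The libraries numbered 1 (blue) sit between 3166 and 6889 CPM and those numbered 2 (red) between 130.1 and 178 CPM.

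The most abundant transcript of the extract was the mitochondrial 16S ribosomal RNA MT-RNR2, at 29938 CPM in input 1 and 24949 CPM in input 2. TUBA1A, the alpha-tubulin of growing neurites, came next with 25403 and 12960 CPM, the highest of all protein-coding genes by the mean of both libraries. The 10 most abundant genes together held 12.03% of the counts in input 1 and 8.50% in input 2, and the 1000 most abundant held 67.9% and 73.2%. Ribosomal protein genes filled much of the list of 30, led by the mean of both libraries by RPL37A with 7367 and 8809.7 CPM. RPL23 stood above it in input 1 and RPLP1 in input 2. Other members of that list were TMSB10, which sequesters actin monomers, with 6499 and 2205 CPM, the calcium-binding protein gene S100A6 with 2603 and 5202 CPM, and the cytokine gene MIF with 3358 and 4402 CPM. IGF2 was the 27th gene of the extract by mean CPM.

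CPM counts reads and is not divided by transcript length. A Nanopore read can span a whole cDNA, which makes the number of reads nearer to a number of molecules than in short-read data. Divided by the longest annotated transcript and scaled to the same total in both libraries, TUBA1A stood at 12595 in input 1 and 5950 in input 2 and ranked 12th. On that scale the 4th gene was the short RNA BCYRN1, with 27661 and 24549.8.

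**Figure D2:**
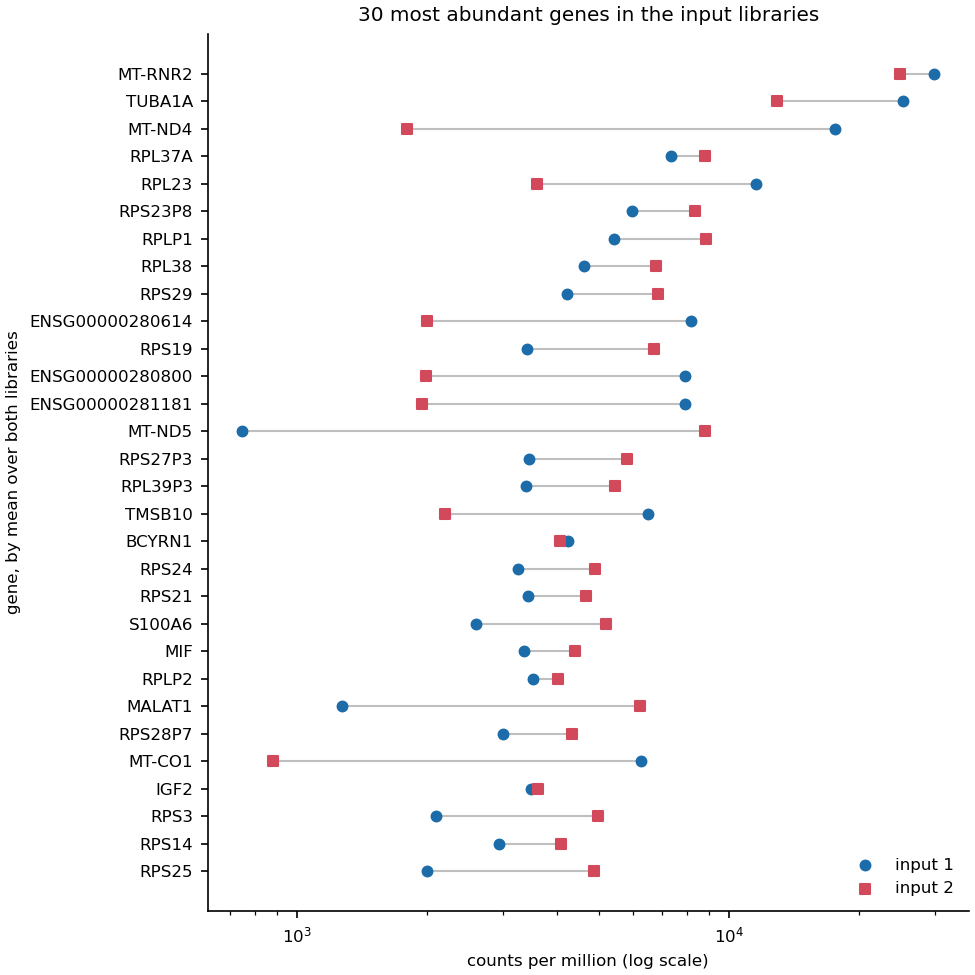
The 30 genes with the highest mean level in the input libraries, in CPM on a log axis, with input 1 as blue circles and input 2 as red squares. MT-RNR2, BCYRN1 and IGF2 lie close together in both libraries, whereas MT-ND4, MT-CO1, MT-ND5 and MALAT1 lie far apart.

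Processed pseudogenes, which are intronless copies of spliced mRNAs, took 9.72% of the counts in input 1 and 8.17% in input 2. Among the most abundant were RPS23P8 (5985 and 8359 CPM), RPS27P3 (3456 and 5831 CPM), RPL39P3 (3397 and 5451 CPM) and RPS28P7 (3000.4 and 4339 CPM). Their parent genes, which encode ribosomal proteins, had lower counts in the table, with 1906 and 4225 CPM for RPS23 and 258 and 391 CPM for RPS27. The sequences show how little separates such pairs. Below are 60 bases of the reading frame of RPS23 (chr5:82273320-82278396, minus strand, bases 114 to 173 of the frame) and the matching bases 12 to 71 of RPS23P8 (chrX:70962964-70963293, plus strand), from the GENCODE v44 transcripts on GRCh38, with the single base that differs in capitals.
RPS23: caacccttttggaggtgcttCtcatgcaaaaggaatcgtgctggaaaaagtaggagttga
RPS23P8: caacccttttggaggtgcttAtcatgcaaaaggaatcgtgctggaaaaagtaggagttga
Over the whole alignment 327 of 330 bases were identical. RPL39 and RPL39P3 were identical over all 156 aligned bases, as were RPS28 and RPS28P7 over 210 and RPL36A and RPL36AP37 over 321. Counts of these pseudogenes are uncertain for that reason. Over such bases the identical pairs cannot be told apart, and whether longer reads separate the pseudogenes from their parents was not tested.

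Genes for ribosomal proteins took 13.1% of the counts in input 1 (95% Wilson interval 12.97 to 13.13) and 20.01% in input 2 (19.92 to 20.10), and 84 of 87 were detected. At 50 or more counts, 26 of 83 were 2-fold or more higher in input 2, where the background was 10.5%. They included RPS3, with 2101 and 4979 CPM, and RPS25, with 2006 and 4888 CPM. RPL23 was the only member 2-fold or more higher in input 1, at 11553 CPM against 3604 CPM. Of pseudogenes named after ribosomal proteins, 62 of 102 were 2-fold or more higher in input 1 (18.3% of all genes were) and 1 was in input 2. Members could reach the minimum through input 1 alone, as RPL30P14 did with 413 and 2 counts. Among the most abundant, RPS23P8 and RPS27P3 were 1.40-fold and 1.69-fold higher in input 2, and RPL6P27 was 1.03-fold higher in input 1. Their summed shares were close, at 6.21% and 5.97%, so the class as a whole did not go against its parent genes.

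Mitochondrially encoded genes held 7.24% of the counts in input 1 and 4.67% in input 2. The mitochondrial genome encodes 13 subunits of the respiratory chain and ATP synthase, and their mRNAs took 3.83% and 1.89%. MT-ND4, a complex I subunit, stood at 17626 CPM in input 1 and 1799 CPM in input 2, a 9.80-fold difference (interval 9.27 to 10.4). MT-ND5, another complex I subunit, showed the reverse, with 747 and 8797 CPM. In all, 10 of 16 mitochondrial genes with 50 or more counts were 2-fold or more higher in input 1, and MT-ND5, MT-CO2 and MT-TS1 were higher in input 2, where the shares over all genes were 18.3% and 10.5%. MT-TS1 has 69 bases, under the minimum read length of the authors, so its reads were longer than the gene. It adjoins MT-CO1 on the opposite strand, which went the other way with 4491 counts in input 1 and 698 in input 2. Whether reads of this stretch were assigned differently in the libraries was not tested.

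**Figure D3:**
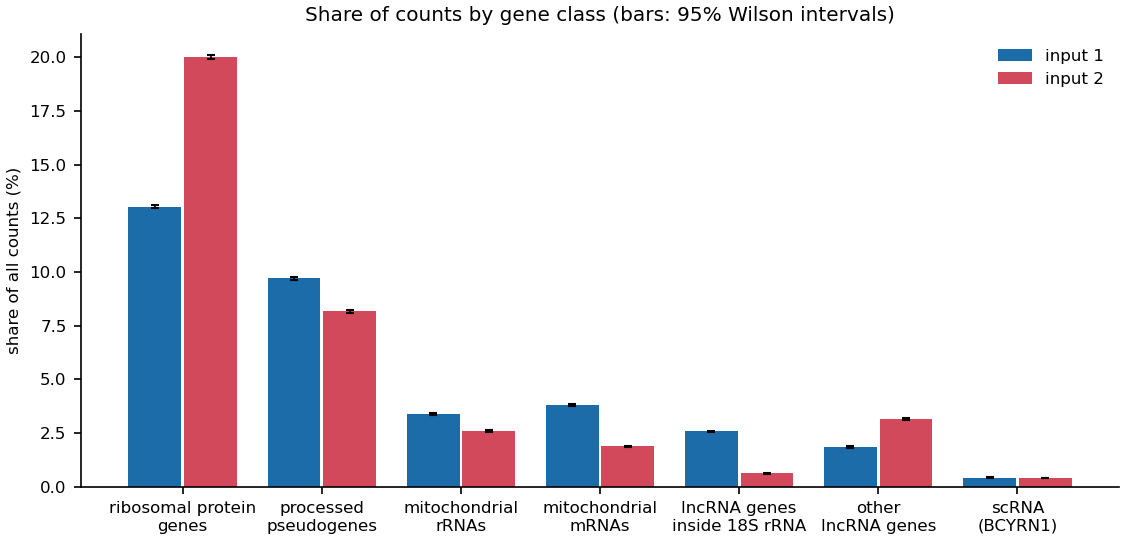
Share of all counts (%, vertical axis from 0) that fell on each gene class in input 1 (blue) and input 2 (red), with 95% Wilson intervals. Ribosomal protein genes took 13.1% and 20.01%, while the scRNA gene BCYRN1 took 0.425% and 0.407%.

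Long non-coding RNA genes took 4.44% of the counts in input 1 and 3.78% in input 2, but 4 genes decide this figure. ENSG00000280614 (chr21:8393419-8394341), ENSG00000280800 (chr21:8210384-8211306), ENSG00000281181 (chr21:8437629-8438551) and ENSG00000281383 (chr21:8254592-8255514) lie inside copies of the 18S ribosomal RNA gene on the opposite strand, by RefSeq positions on GRCh38. The first had 8190.5 CPM in input 1 and 2000.1 CPM in input 2. It is identical over its 923 bases to ENSG00000280800 and ENSG00000281181, so the counts of these 3 cannot be told apart, while ENSG00000281383 differs from each of them at 106 bases. Whether their reads came from a lncRNA or from ribosomal RNA was not tested. Together they held 2.58% and 0.630%, and the lncRNA genes outside 18S ribosomal RNA held 1.86% and 3.15%, so the order of the libraries turns when they are left out.

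Outside that group the lncRNA with the highest mean CPM of both libraries was MALAT1, a nuclear RNA of splicing speckles. It had 1270.4 CPM in input 1 and 6229 CPM in input 2, a 4.90-fold difference (interval 4.57 to 5.27). PCBP1-AS1 had 1954 and 1614 CPM and stood above MALAT1 in input 1. SNHG5, a host gene of small nucleolar RNAs, had 1095 and 1808 CPM, and ZFAS1, of the same kind, had 371 and 941 CPM. GAS5, which accumulates when growth stops, was at 274 and 869.98 CPM. In the list of 38 long non-coding RNAs, 8 of 20 with 50 or more counts were 2-fold or more higher in input 2 (MALAT1, GAS5, SNHG3, SNHG8, ZFAS1, OIP5-AS1, FTX and CRNDE), beside 10.5% of all genes, and NORAD was higher in input 1. Levels of the imprinted MEG3 were 179.7 and 337 CPM, and those of NEAT1, the scaffold of paraspeckles, 54.3 and 89.6 CPM. HAND2-AS1, the antisense partner of the sympathetic regulator HAND2, was chosen after its values were seen and had 315 and 355 CPM. CyCoNP itself, annotated as LINC02381 (chr12:54126019-54147485), had 20 counts in input 1 and 39 in input 2, or 27.9 and 49.2 CPM. HOTAIRM1 and RMST had no count in either library. Where antisense genes such as PCBP1-AS1, HAND2-AS1 and OIP5-AS1 overlap their partners, their reads cannot be told apart, since the sources used here do not say whether counting used strand.

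BCYRN1, a neuronal RNA that represses translation near synapses, was among the genes that differed least between the libraries, with 4246 CPM in input 1 and 4070 CPM in input 2, a ratio of 1.04 (interval 0.993 to 1.097). It was the only RNA polymerase III gene among the 30 most abundant. Other small structured RNAs were close to absent from the counts. Whether the cDNA preparation and the read length limit let such RNAs through was not tested, so their counts do not give their level in the extract. RN7SL1, the RNA of the signal recognition particle, had 48.8 and 56.8 CPM, and RN7SK, RMRP, RPPH1, SCARNA2, RN7SL2 and RNU1-1 had none.

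The label of a neuroblastoma line was checked with 3 marker genes, and all were present, although muscle also expresses IGF2 and NCAM1 and MYOG, at 928 CPM, stood above NCAM1 in input 1. IGF2, a growth factor of fetal tissue and embryonal tumours (chr11:2129112-2158391), stood at 3481 CPM in input 1 (95% Wilson interval 3347 to 3620) and 3628 CPM in input 2 (3498 to 3762). MAP1B, a microtubule-binding protein of growing axons (chr5:72107234-72209565), stood at 3463 and 2922 CPM. NCAM1, the neural cell adhesion molecule (chr11:112961275-113278436), had 205 and 154 CPM, from 147 and 122 counts. All of them differed by less than 1.5-fold between the libraries, with ratios of 1.04, 1.19 and 1.33.

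Most transcription factors of the noradrenergic list were counted, but SOX4 alone made 60.6% of their summed level by the mean of both libraries. SOX4 had 1899.97 CPM in input 1 and 1923 CPM in input 2, PHOX2A 359 and 263 CPM, TFAP2B 266 and 256 CPM, GATA2 198 and 125 CPM, and KLF7 150.4 and 149 CPM. HAND2 had 173 and 93.4 CPM, and GATA3 34.8 and 30.3 CPM. Of the 20 genes of this list 17 had a count in both libraries, TBX20 had none, and none of the 6 with 50 or more counts differed by 2-fold, too few to set against 18.3% and 10.5% of all genes. By the mean of both libraries, the median over the list was 23.4 CPM, against 6.51 CPM over all genes detected in either library. A median above 6.51 CPM was found for 21 of 31 lists, so it does not set this list apart.

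The enzymes that turn tyrosine into noradrenaline were all counted. TH, which sets the rate, had 124 and 139 CPM, DDC 142 and 194 CPM, and DBH, which makes noradrenaline from dopamine, 203 and 199 CPM. SLC6A2, the noradrenaline transporter, had 221 and 135 CPM. PNMT, which would convert noradrenaline into adrenaline, had 2 counts in input 1 and 1 in input 2, under the limit of 3 counts. CYB561, an electron carrier of secretory vesicles, had 298 and 116 CPM and was 2.57-fold higher in input 1 (interval 2.001 to 3.31). The vesicular carrier SLC18A2 had 1 and 17 counts.

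Cholinergic genes summed to 375 CPM in input 1 and 280.3 CPM in input 2 and were unevenly present. CHRNA3, a subunit of the ganglionic nicotinic receptor, had 233 and 141 CPM, and its partner CHRNB4 26.5 and 44.2 CPM. SLC18A3, the vesicular acetylcholine transporter, had 10 counts in each library. CHAT, which makes acetylcholine, and SLC5A7, which takes up choline, had 0 counts in both, so levels up to 4.18 CPM in input 1 and 3.79 CPM in input 2 could have gone unseen. Of the motor neuron markers, LHX3, LHX4, OLIG2, NEUROG2 and CHODL had no count, MNX1 had 2 and 1 counts, ISL2 had 2 and 6, and SLIT3, a guidance cue, had 61.3 and 59.3 CPM.

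Granins and neuropeptides, the cargo of dense-core vesicles, summed to 4023 CPM in input 1 and 3895 CPM in input 2, but single peptides differed. NPY (chr7:24284188-24291862) had 231 CPM in input 1 and 1606 CPM in input 2, which is 6.95-fold (interval 5.90 to 8.22). CHGA was also higher in input 2, with 182 and 461 CPM. GAL stood at 589 CPM in input 1 and 141 CPM in input 2, and VGF at 1251 and 375 CPM. SCG2 and CHGB differed by less than 1.5-fold, with 623 and 438 CPM and with 442 and 321 CPM. The list had 2 members higher in each library out of 11 with 50 or more counts, and the shares over all genes were 18.3% and 10.5%, so the list does not stand out by its count.

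Genes of the neuronal cytoskeleton and neurite growth summed to 43050 CPM in input 1 and 23416 CPM in input 2, of which TUBA1A alone made 57.7% by the mean of both. Of 31 members 30 had a count in both libraries. In input 1, 8 of 24 were 2-fold or more higher, namely GAP43, TUBB2A, TUBB2B, NEFM, MARCKS, BASP1, TMSB10 and KIF5C, where 18.3% of all genes were, and none was in input 2. GAP43, the growth-cone phosphoprotein, had 978 and 140.2 CPM, a 6.98-fold difference (5.70 to 8.60). BASP1, which shares membrane sites with GAP43, had 357 and 82.1 CPM, and MARCKS had 481 and 154 CPM. STMN2, which frees tubulin in growing axons, did not follow, with 552 and 634 CPM, nor did UCHL1, with 632 and 709.6 CPM.

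Among adhesion and guidance genes, ALCAM had 767 CPM in input 1 and 273 CPM in input 2, and the N-cadherin gene CDH2 had 330.1 and 60.6 CPM. NRCAM had 187 and 274 CPM, and CNTN1 123 and 227 CPM. The guidance cue SEMA3A was the only other member, beside ALCAM and CDH2, that was 2-fold or more higher in input 1 among 10 with 50 or more counts, beside 18.3% of all genes. CHL1, DCC and NCAN had no count. Genes of synaptic release were lower, with a sum of 698 CPM in input 1 and 434 CPM in input 2. SYT1, the calcium sensor of release, had 222 and 109.9 CPM, CPLX2 142 and 54.3 CPM, SYP 96.1 and 70.7 CPM, and SNAP25 15.3 and 27.8 CPM. Of the neuronal RNA-binding proteins, ELAVL3 had 294 and 155 CPM and ELAVL4 135 and 54.3 CPM. RBFOX3, which encodes the NeuN antigen of mature neurons, had no count.

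MYCN (chr2:15940550-15947007) had 1532 CPM in input 1 (95% Wilson interval 1444 to 1625) and 1799 CPM in input 2 (1708 to 1895), from 1100 and 1425 counts. MYC had 1 count in each, and the receptor kinase gene ALK had 0 and 1. DDX1, a neighbour of MYCN that is often amplified with it, was 3.07-fold higher in input 1 (2.41 to 3.94), at 357 and 116 CPM, while the antisense gene MYCNOS had 104 and 129 CPM. Reads of MYCN and MYCNOS cannot be told apart where the genes overlap, for the same reason. Genes of nucleolar proteins were counted with 1543 and 1154 CPM for NCL and 347 and 891 CPM for NPM1. The processed pseudogene NPM1P46 had 119.8 and 2143 CPM, and how reads were divided between it and NPM1 was not tested. LIN28B, which blocks maturation of let-7, had 35 and 19 counts.

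In the IGF axis the summed level was 5017 CPM in input 1 and 4532 CPM in input 2, most of it from IGF2. The type 1 receptor gene IGF1R, through which IGF2 signals, had 343 and 145 CPM, a 2.36-fold difference, and the scavenger receptor gene IGF2R 329 and 239.9 CPM. IGF2BP1, an RNA-binding protein that binds the IGF2 message, had 160.2 and 229 CPM. IGFBP5, which is also expressed in muscle precursors, had 131 counts in input 1 and 10 in input 2, and H19, the imprinted neighbour of IGF2, had 22 and 0.

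CRABP1, which binds retinoic acid in the cytoplasm, had 425 and 569 CPM, and CRABP2, which delivers retinoic acid to its receptors, 238 and 250.0 CPM. RET, a receptor kinase of sympathetic neurons, had 216 and 159 CPM, and the homeobox gene MEIS2 123 and 164 CPM. CYP26A1, which degrades retinoic acid, had 35 and 21 counts, and the receptor gene RARB had 1 and 2. RDH10 was the single member of 11 with 50 or more counts that differed by 2-fold, with 68.2 CPM in input 1 and 15.2 CPM in input 2, beside 18.3% and 10.5% of all genes in each direction, which 11 genes cannot be set apart from. CYP26C1, RXRG, HOXB1, ALDH1A1, ALDH1A2, ALDH1A3 and NTRK2 had no count.

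Genes of the cell cycle were counted throughout. All 22 genes of the S-phase list and all 24 of the mitosis and G2/M list had a count in both libraries. TYMS, which makes thymidylate, had 265 and 378 CPM, RRM2 86.4 and 83.3 CPM, and RFC4 128 and 318 CPM. TOP2A, which untangles sister chromatids, was alike in both, at 414 and 386 CPM (ratio 1.07, interval 0.910 to 1.26). The mitosis list summed to 1720.3 CPM in input 1 and 3005 CPM in input 2, and 6 of 14 members with 50 or more counts were 2-fold or more higher in input 2, beside 10.5% of all genes. CCNB1, the mitotic cyclin, stood at 48.8 and 306 CPM, a 6.27-fold difference (4.38 to 9.21). CKS1B, CKS2, UBE2C, PTTG1 and AURKB were the others, with PTTG1 at 145 and 386 CPM. TPX2 was 2.02-fold higher in input 1, with 73.8 and 36.6 CPM, and under 2-fold with TMM scaling. CENPF, with 143 and 148 CPM, did not differ by 2-fold. MKI67, the proliferation marker, had 15 and 24 counts.

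Brakes and drivers of the cycle were found side by side. CDK6 had 313 and 491 CPM, the cyclin genes CCND1 and CCND3 341 and 136 CPM and 155 and 184 CPM, CDKN1A 188 and 229.8 CPM, and CDK4 90.5 and 135 CPM. CCND2 had no count.

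None of the 14 glycolytic genes with 50 or more counts differed by 2-fold (18.3% and 10.5% of all genes did in each direction), although ALDOC passed it under TMM scaling, and GAPDH led with 2024 and 3288 CPM, followed by LDHB with 744 and 896 CPM. Among 21 chaperones 6 were 2-fold or more higher in input 1 (18.3% of all genes were), with HSPA8 at 1144 and 339.7 CPM and HSP90AB1 at 1929 and 706 CPM, and HSPB1 and PPIA were higher in input 2. Translation factors had 3 members higher in input 1 and 1 in input 2 out of 18, no more than the shares of 18.3% and 10.5% over all genes, with TPT1 at 2105 and 1671 CPM and EIF1 at 1084 and 1852 CPM. Of the immediate-early genes FOS had 1 and 2 counts and EGR1 50 and 76, while the stress factor gene DDIT3 had 33.4 and 139 CPM.

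Markers of blood, endothelium, adrenal cortex and pluripotent cells were at or near 0, whereas several of mesenchyme, like the skeletal muscle genes above, were not. PTPRC, CD3E, LYZ, HBB, HBA1, HBG1 and TYROBP had no count, and the immune and blood list summed to 1 count in each library. The endothelial list summed to 0 and 2 counts, and the adrenal cortex list to 5 and 1, all of them STAR. SOX10, FOXD3, MBP and CDH19 of the Schwann cell list had no count, and PMP22 had 3 and 9. In the epithelial list KRT19 had 12 and 20 counts, or 16.7 and 25.3 CPM, and CDH1, KRT5 and KRT14 had none. Pluripotency markers summed to 1 and 4 counts, and the glutamatergic and GABAergic list to 0 and 6. Fibroblast and smooth muscle markers summed to 766 CPM in input 1 and 119.95 CPM in input 2, with all 10 detected. COL1A1 had 192 and 10 counts, COL1A2 131 and 2 (ratio 72.3, interval 19.6 to 603), ACTA2 112 and 2, and COL3A1 30 and 0. THY1, which neurons also carry, had 61 and 52, PDGFRB 8 and 8, DCN 4 and 3, PDGFRA 3 and 2, and TAGLN 1 and 1. LUM went the other way, with 8 and 15. The mesenchymal-state list of neuroblastoma summed to 901 CPM in input 1 and 128 CPM in input 2, and VIM had 210.3 and 63.1 CPM. SNAI2, YAP1, NOTCH2, TGFBI, MEOX1 and MEOX2 had no count. COL1A1, COL1A2, COL3A1, ACTA2 and VIM were higher in input 1, like the skeletal muscle transcripts. Whether their reads belong to the neuroblastoma cells was not tested.

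**Figure D4:**
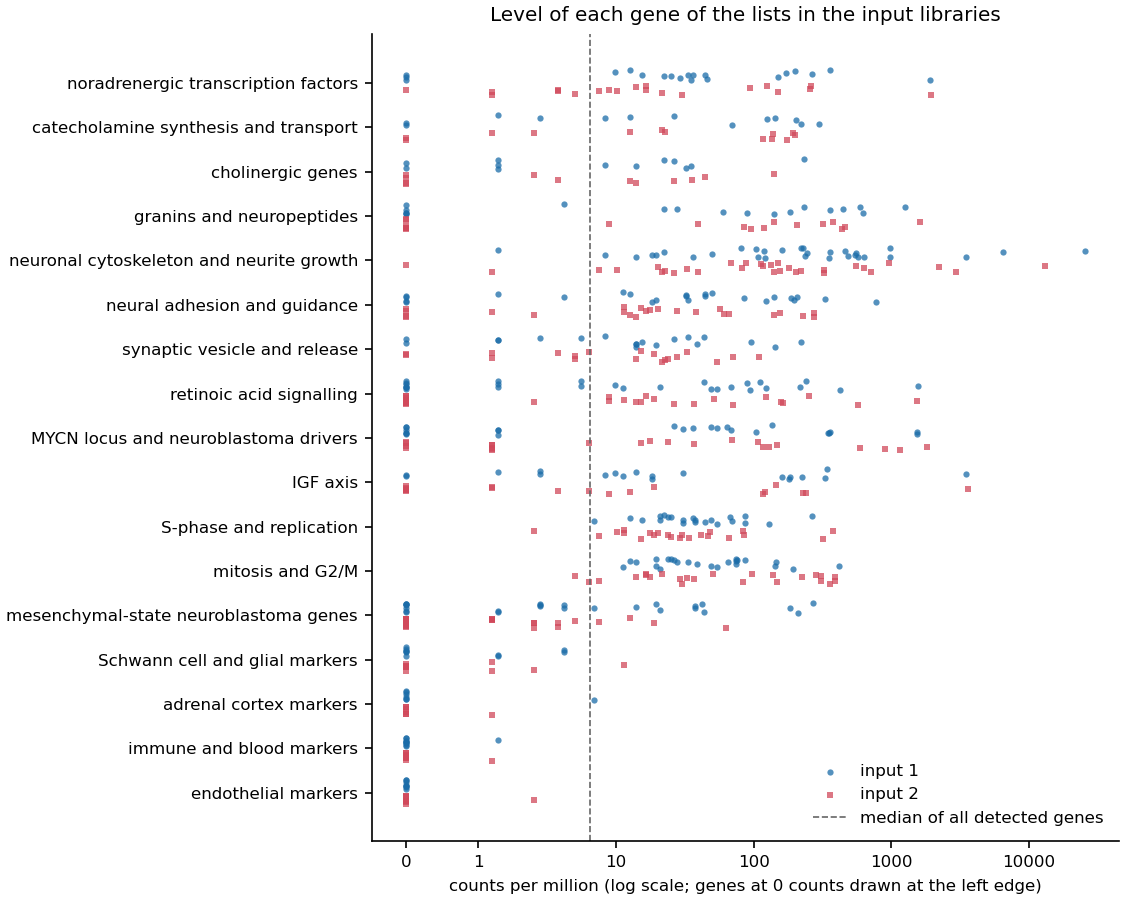
Level of every gene of 17 lists in CPM on a log axis, with genes at 0 counts drawn at the left edge, input 1 as blue circles, input 2 as red squares, and the median of all detected genes (6.51 CPM) as a dashed line. Members of the neuronal, noradrenergic and cell-cycle lists lie mostly to the right of that line, and the immune and endothelial markers lie at or near 0.

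Of 3742 genes with 50 or more counts over both libraries, 685 (18.3%) were 2-fold or more higher in input 1 and 394 (10.5%) in input 2. That is 63.5% and 36.5% of the genes past 2-fold. With TMM scaling, which shifts every log2 ratio by 0.19 toward input 2, 541 were higher in input 1 and 562 in input 2, or 49.0% and 51.0%, and with the size factors of DESeq2 537 and 569, or 48.6% and 51.4%. Under TMM 14.5% of all genes were higher in input 1 and 15.02% in input 2. Counts toward input 2 could then only rise, to 35 for ribosomal protein genes, 8 for mitosis genes and 11 for the long non-coding RNAs. Still higher in input 1 against this shift were 58 ribosomal pseudogenes, 9 mitochondrial genes and 8 cytoskeletal genes. All 11 muscle genes stayed as well, but their list was chosen after these values were seen, so this tests nothing. Chaperones went from 6 and 2 to 4 and 3, translation factors from 3 and 1 to 2 and 2, and adhesion genes from 3 and 0 to 3 and 1. CyCoNP, at 1.77-fold by library totals, and ALDOC, at 1.92-fold, passed 2-fold toward input 2 under TMM.

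Genes were ranked by their ratio on each side with counts under 3 set to 3, and the first 10 follow. Higher in input 1 were MYOG, TNNC2, TNNT2 and 7 processed pseudogenes, namely RPL30P14 with 413 and 2 counts, RPL23AP42 with 874 and 8, HSP90AB3P with 211 and 2, ENSG00000213303 with 177 and 3, COX6CP6 with 150 and 3, RPS26P2 with 546 and 11, and ST13P6 with 147 and 1. By the ratio of the counts themselves COL1A2, ACTA2 and ANKRD1, with 131, 112 and 107 counts in input 1 and 2 counts each in input 2, and the pseudogenes RPL32P11 and RPL30P4 stood above COX6CP6 and RPS26P2. Processed pseudogenes made up 17.8% of all genes higher in input 1, 1.78% of those higher in input 2 and 5.53% of all genes compared. Higher in input 2 was the lncRNA gene ENSG00000269888 (chr3:161429112-161429613), with 2 and 1146 counts, a ratio of 519 (interval 143 to 4294). This gene and RPL23AP42 (chr3:161429127-161429597) share 1 locus on opposite strands, and their summed counts were 876 in input 1 and 1154 in input 2. RPL23AP42 held most of them in input 1 and ENSG00000269888 in input 2. In the pull-downs RPL23AP42 had 2759 counts in CyCoNP PD 1 and 666 in CyCoNP PD 2, against 3 and 6 for ENSG00000269888. Whether reads of the locus were assigned differently in the inputs was not tested. LINC01521 had 0 and 127 counts and was at least 38.4-fold higher in input 2. The protein-coding gene ENSG00000286070 had 1 and 181 counts, a ratio of 164 (29.1 to 6516), and overlaps SNRPD3 on the same strand, which had 160 and 83. Also on that side, TCF12, a partner of neurogenic bHLH factors (chr15:56918623-57299281), had 125 CPM in input 1 and 1794 CPM in input 2, which is 14.3-fold (11.6 to 17.9). The processed pseudogenes on that side were NPM1P46 with 86 and 1697 counts, ENSG00000254719 with 2 and 105, and MXRA7P1 with 0 and 61. SPIN4 had 7 and 113 counts, ENSG00000279905 3 and 50, and the mitochondrial tRNA gene MT-TS1 58 and 1352. The reads of MT-TS1 were longer than the gene, as given above.

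**Figure D5:**
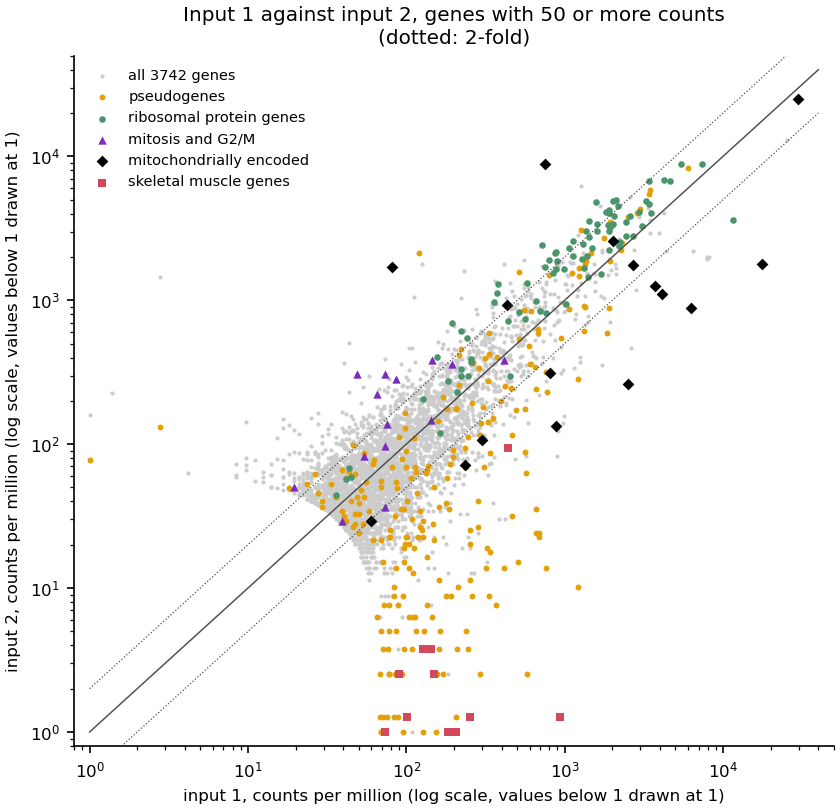
Input 1 (horizontal) against input 2 (vertical) for 3742 genes with 50 or more counts, both in CPM on log axes, with the diagonal as a solid line and 2-fold differences dotted. Skeletal muscle genes (red squares) and many pseudogenes (orange) lie far below the diagonal, and ribosomal protein genes (green) lie mostly above it.

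Transcript length moved with the side. Protein-coding genes were divided by their longest annotated transcript into 5 groups of nearly equal size, and the median log2 ratio of input 2 to input 1 was 0.42 in the shortest group (207 to 1865 bases), 0.08, -0.23 and -0.22 in the middle groups and -0.42 in the longest (6387 bases and more). In the longest group 25% of genes were 2-fold or more higher in input 1, against 6.76% in the shortest. The part of length in the differences of single genes was not tested.

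Many of the differences recurred in the CyCoNP PD libraries of the same number. Of 674 genes higher in input 1 that had 20 or more counts there, 504 (74.8%) had a higher CPM in CyCoNP PD 1 than in CyCoNP PD 2. Of 384 genes higher in input 2, 289 (75.3%) were higher in CyCoNP PD 2. Over all 3706 genes compared in this way, 50.9% were higher in CyCoNP PD 1. Of the first 10 genes ranked higher in input 2, most with 20 or more counts there went the other way. TCF12 had 151 of 1512148 counts in CyCoNP PD 1 and 8 of 514882 in CyCoNP PD 2. MT-TS1 had 2939 and 832 counts, ENSG00000286070 406 and 100, and SPIN4 24 and 2. Each was higher by CPM in CyCoNP PD 1, while ENSG00000254719, with 55 and 20, was higher in CyCoNP PD 2. The rest of these 10 had fewer than 20 counts there.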

How the data were processed

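Total RNA of SK-N-BE extract was read as PCR-amplified cDNA on a Nanopore flow cell. The authors kept reads that passed quality and length limits, aligned them to GRCh38 with minimap2 2.24-r1122 and counted reads per gene of Ensembl 99 with Bambu. The deposited counts are whole numbers without normalization. A second deposited table gives them as CPM, and dividing the counts by each library total returned its values to within 3.82e-11. Counting intervals assume independent reads, which PCR without molecular identifiers does not give.

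Here CPM, shares with 95% Wilson intervals, and ratios with exact 95% Clopper-Pearson intervals were computed in Python 3.11 with scipy 1.17.1. Names and types came from GENCODE 44, which held 60357 of 60676 entries. Genes with a total of 50 or more counts were compared, and a ratio of 2-fold or more was the limit. TMM factors came from edgeR 4.0.16 and size factors from DESeq2 1.42.0 in R 4.3.3. No test was run, since each side has 1 library. The comparison rule was tested on simulated data.

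The members and lists were chosen with earlier results of these data known, and the skeletal muscle list after its values were seen. Genes were named from the 30 most abundant genes, the top 5 and the undetected members of each list, the genes measured singly by other assays, the 10 leading lncRNA genes and the 10 largest ratios in each direction, ranked with counts under 3 set to 3. Other named genes were chosen after their values were seen. Values of some list members are not reported here.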

Additional observations from a re-analysis of the deposited data

How the results depend on the processing

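No paired analysis was possible because only 1 group, the input, was described. The 10 most abundant genes held 10.3% of the counts by the mean of both libraries, and 23.4% when counts were divided by transcript length and the 10 genes chosen anew. The lncRNA share of 4.11% became 2.50% without the genes inside 18S ribosomal RNA, a setting chosen after seeing the data. With a minimum of 20 counts 1507 genes were higher in input 1 and 698 in input 2, and with 200 counts 161 and 141, since other numbers of genes were then compared. Every gene past 2-fold at a minimum of 50 counts had an interval that excludes 1, so requiring this kept 685 and 394 and tests nothing. Leaving out each library gave 15780 to 16114 detected genes, 8.50% to 12.03% for the 10 most abundant genes, 4.67% to 7.24% for mitochondrial genes, 13.1% to 20.01% for ribosomal protein genes, 3.78% to 4.44% for lncRNA genes and 20 to 21 of 31 lists above the median of all detected genes. Summed levels of 22 lists moved by more than the spread between the libraries when divided by length, and those of 9 when mitochondrial genes were left out. Thinned to the depth of input 1, input 2 had 15436 detected genes. Depth limits each gene under about 4.18 CPM.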

Other observations

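In a list of genes measured singly by other assays all 10 members were counted in both input libraries, and none of the 5 with 50 or more counts differed by 2-fold (18.3% and 10.5% of all genes did in each direction), although CyCoNP passed 2-fold toward input 2 under TMM scaling. PSMC4, a proteasome subunit gene, had 48 counts in input 1 and 40 in input 2, and SAMD4B, which encodes an RNA-binding protein, had 36 and 31. Near the limit of 3 counts were CHRM1, a muscarinic receptor gene, with 1 and 3 counts, and ARHGEF28 with 1 in each. Secreted growth factors outside the lists, chosen after their values were seen, included PTN with 529 and 347 CPM and MDK with 134 and 130.1 CPM, while GREM1 had 1 and 0 counts.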
